A study of Mus musculus with 80 samples.

Results

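The reporters described here, called members below, are the integrated barcodes that kept RNA at 0.1 ng/ml doxycycline (dox) and gave no RNA count at 100 ng/ml. A reporter was eligible when its barcode had at least 100 DNA counts in all 8 DNA libraries of its pool, and 7415 of the 10903 reporters in the table were. Members were then chosen by their measured RNA counts: an eligible reporter was a member when it had at least 10 RNA counts in both cultures at dox 0.1 and 0 RNA counts in both cultures at dox 100. This gave 1302 members, 17.6% of the eligible reporters. Pool A held 302 of them (17.1%), pool B 333 (18.2%), pool C 325 (17.5%) and pool D 342 (17.4%).

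The host is EBRTcH3, a line of mouse embryonic stem cells in which the ROSA26 promoter drives the tetracycline-controlled transactivator (tTA). Reporters were inserted with the piggyBac transposon and are told apart by a barcode of 16 bases (the TRIP assay), and the study asked how the place of integration affects expression. The sort took low-eGFP cells, which grew for 5 days before small pools were isolated and expanded for 7 days. Each of the 4 pools, A to D, was divided into 2 cultures that grew apart for 7 more days, and each culture was then spread over 4 doses of dox: none, 0.01 ng/ml, 0.1 ng/ml and the highest, 100 ng/ml. After 72 h, RNA and genomic DNA were taken. All groups thus share the cell line, tTA, the reporter library, the low-eGFP sort and the dosing time, and they differ in pool, dose and culture. The labels call the 2 cultures of a pool technical replicates, so the spread between them is technical, while the 4 pools are separate sets of integrations from 1 cell line. The titles name a tet-Off reporter, whereas the protocols also mention an mPGK promoter; the labels do not settle which is meant.

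In tet-Off reporters, tTA sits on operator sites beside a minimal promoter and switches transcription on. Doxycycline binds tTA and takes it off the operator, so more dox means less activator at every copy. A reporter placed at many sites is known to differ in level from site to site, the position effect, since each copy takes on the chromatin and the regulatory elements around it.

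Another 2 sets of eligible reporters serve as the comparison. The silent set holds 895 reporters with 0 RNA counts in both cultures at dox 0.1 and at dox 100. The kept set holds 2345 reporters with at least 10 RNA counts in both cultures at both doses. The remaining 2873 eligible reporters met none of the 3 descriptions. RNA counts at dox 0.1 and 100 thus chose all 3 sets, and calls of members at those doses are given as a description. What is tested is RNA at dox 0 and 0.01, DNA, positions, neighbours, and, for the rule applied to 1 culture alone, its outcome in the other culture.

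The barcode is the name by which a reporter is counted, and some barcodes occur in more than 1 pool at different places in the genome. Such barcodes show 1 tag at 2 sites. Of all barcodes, 395 did so, and 62 members shared theirs with an eligible reporter of another pool. The 4 barcodes below are the member pair with the closest RNA/DNA levels at dox 0 first, then another pair of members, then a member paired with a kept reporter and a member paired with a silent one.
Barcode 1: caactcggccataaga
Barcode 2: acctatcaccaatagc
Barcode 3: agattttaagtacctg
Barcode 4: tatgctgtatgtattg

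Barcode 1 marked position 48432109 of chromosome 8 (plus strand, pool B) and position 23610266 of chromosome 16 (plus strand, pool C), and both copies were members. RNA counts of the pool B copy were 683 and 678 at dox 0, 621 and 658 at dox 0.01, 61 and 126 at dox 0.1 and 0 and 0 at dox 100. The pool C copy had 526 and 518, 458 and 352, 58 and 92, and 0 and 0 RNA counts at the same doses. Both copies of barcode 2 were members too, at position 101246355 of chromosome 7 (pool A) with 24 and 38 RNA counts at dox 0.1, and at position 76725541 of chromosome 9 (pool D) with 18 and 21.

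Barcode 3 marked a member on chromosome 6 at 51473855 (pool D) and a kept reporter on chromosome 3 at 145536102 (pool B). At dox 0.1 the member had 61 and 49 RNA counts and the kept reporter 156 and 90. At dox 100 the member had 0 and 0 and the kept reporter 224 and 302. Under the same tag, then, the chromosome 3 copy had RNA at dox 100 and the chromosome 6 copy had no count. Barcode 4 marked a member on chromosome 13 at 44580410 (pool D), with 103 and 117 RNA counts at dox 0.1, and a silent reporter on chromosome 1 at 39963998 (pool A), with 0 and 0.

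Across all such pairs, 14 of the 66 partners of members were members themselves (21.2%), 20 were kept, 8 were silent and 24 were of other kinds. Over all eligible reporters, 66 of 432 partners were members (15.3%). None of the shared barcodes of members had its partner within 1 Mb on the same chromosome (0 pairs). The G+C content of the barcodes averaged 41.3% ± 0.743 in members and 41.1% ± 0.0731 in all eligible reporters (SD of pool means, n = 4 pools). The difference was smaller than the spread of the members between pools.

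RNA of the members dropped in steps with dose, as did that of eligible reporters at large. Over the 8 libraries of a dose, the median RNA count of a member was 339 to 561.5 at dox 0, 202 to 401.5 at dox 0.01, 49 to 99.5 at dox 0.1 and 0 at dox 100, the last value set by the rule. For all eligible reporters the median was 291 to 436.5, 168 to 315.5, 44 to 99 and 0 at the same doses. The median DNA count of a member was 340 to 623 at dox 0, 341.5 to 639.5 at dox 0.01, 351 to 647 at dox 0.1 and 351 to 628.5 at dox 100. RNA libraries held 729552 to 1840870 counts in all, and DNA libraries 928128 to 1571280. The barcodes of the members thus stayed as abundant in DNA while their RNA counts were lower.

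As a share of all RNA counts of a pool, members took 13.7% ± 1.66 at dox 0, 11.1% ± 1.37 at dox 0.01, 3.23% ± 0.389 at dox 0.1 and 0 at dox 100 (SD, n = 4 pools). Their share of DNA counts was 15.1% ± 0.781, 14.9% ± 0.957, 14.9% ± 0.747 and 14.9% ± 0.998 at the same doses. Silent reporters took 1.15% ± 0.168 of the RNA counts at dox 0 and 0.607% ± 0.09 at dox 0.01. Kept reporters took 50.2% ± 5.34, 56.7% ± 6.12, 75.5% ± 9.16 and 82.7% ± 9.01 from dox 0 to dox 100. Kept reporters thus filled most of the RNA libraries at the higher doses, and a library total is then a total of mostly kept reporters.

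**Figure D1:**
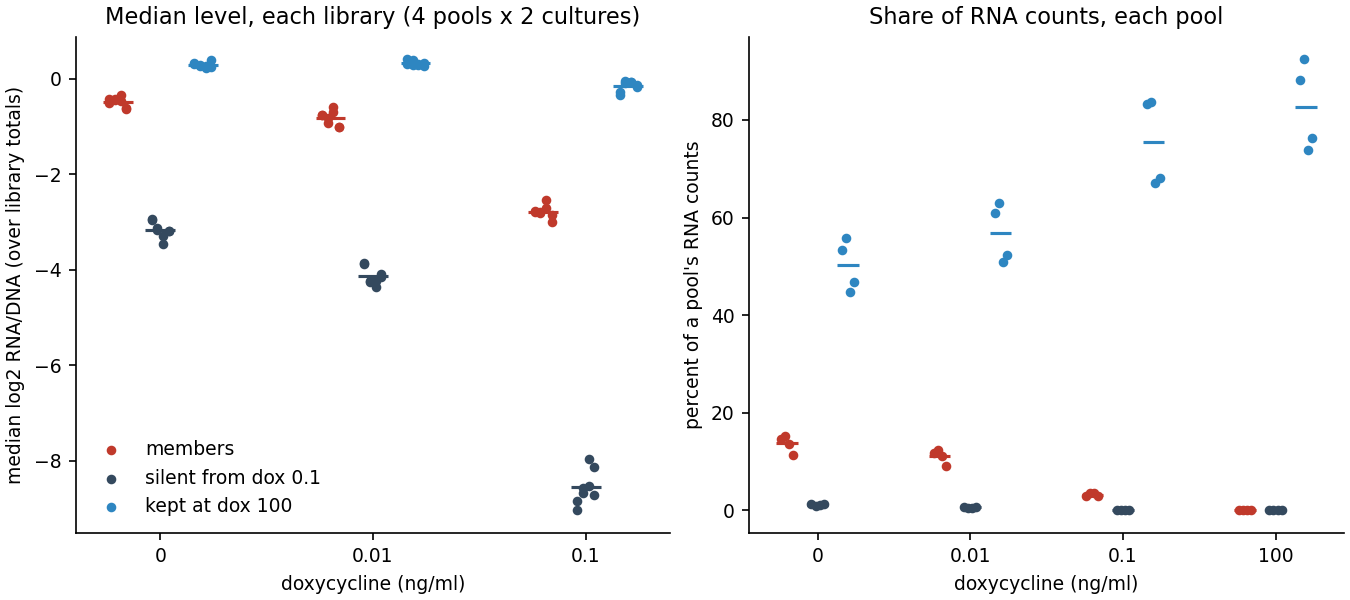
Left, median log2 RNA/DNA of members, silent and kept reporters in each library (points, 4 pools and 2 cultures; bars, means) against dox in ng/ml; right, the share of a pool's RNA counts taken by each set (points, 4 pools; bars, means). Members lie between silent and kept reporters at dox 0 and 0.01, their RNA share is 3.23% at dox 0.1 and 0 at dox 100, and the silent points at dox 0.1 show counts of 0 plus the pseudocount.

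The level of a reporter is given as log2 RNA/DNA: each count plus 1 was divided by its library total, and the 2 cultures were averaged. At dox 0 the median member stood at −0.49 in pool A, −0.48 in B, −0.40 in C and −0.72 in D. Silent reporters stood at −2.97, −3.24, −3.32 and −3.26 in pools A to D, and kept reporters at 0.27, 0.26, 0.25 and 0.35. Members were therefore above silent reporters and below kept reporters in 4 of 4 pools, with no overlap of the pool values.

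The difference at dox 0 was 2.67 ± 0.20 against silent reporters and −0.80 ± 0.19 against kept reporters (SD, n = 4 pools; log2 scale; exact sign-flip permutation test over pools, two-sided p = 0.125 for each). With 4 pools 0.125 is the smallest p this test can give, and adjusted over the 9 comparisons made in this way each p is 0.141. The sets were cut by RNA counts at dox 0.1 and 100. Levels of members at dox 0 and 0.1 had a Pearson r of 0.627 ± 0.0189 (SD, n = 4 pools). The dox 0 levels are thus not independent of the cut. With an RNA minimum of 50 in the rule, the differences were 3.43 against silent and −0.20 against kept reporters. How much of them the count limits give was not tested. Median DNA counts were 482 ± 132 in members, 378 ± 73.1 in silent and 562 ± 181 in kept reporters (SD, n = 4 pools); the part of DNA depth in these differences was not tested. The lower quartile of the members was −1.54 ± 0.11 and the upper quartile 0.46 ± 0.15 at dox 0 (mean over pools ± SD, n = 4).

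Members were most frequent in the middle and upper range of dox 0 levels. Eligible reporters of each pool were divided into 10 equal classes by level at dox 0. Members made up 4.19% ± 1.61 of the lowest class and 24.2% ± 0.782 of the 8th, and 13.7% ± 2.92 of the highest (SD, n = 4 pools). The silent share was 48.1% ± 3.35 in the lowest class and 0 in the highest, where 68.1% ± 1.48 were kept. In the top class, members were thus less frequent than in the 4th to 9th classes, each of which held 19.8% to 24.2%.

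**Figure D2:**
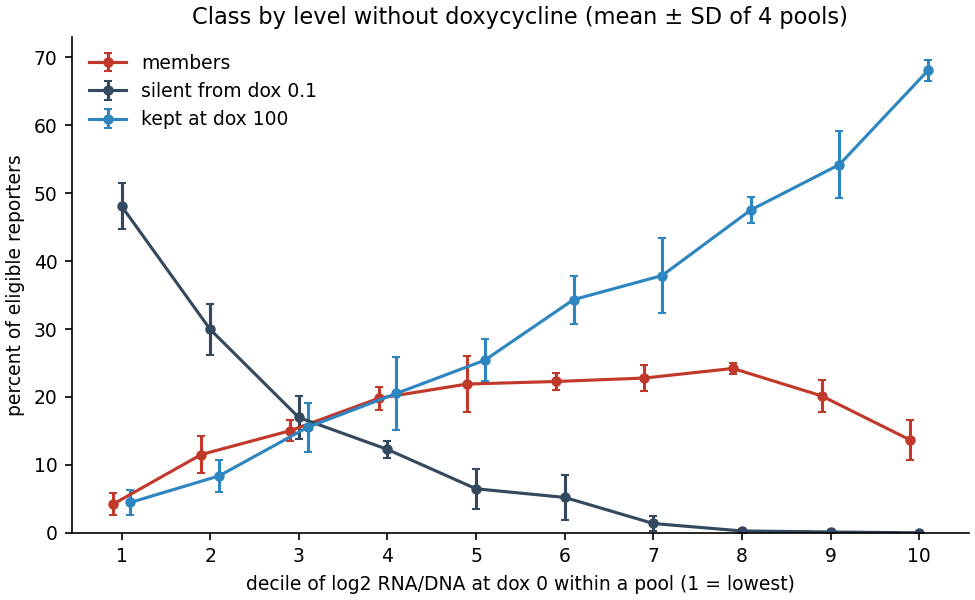
Percent of eligible reporters that are members, silent or kept in each of 10 equal classes of the dox 0 level within a pool, lowest at left (points, mean of 4 pools; bars, SD). Members have their highest share, 24.2%, in the 8th class, while the silent share is 0 and the kept share 68.1% in the highest.

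At dox 0.01, a low dose that the rule did not use, the members moved by about as much as eligible reporters at large. The median change of a member from dox 0 to 0.01 was −0.35 in pool A, −0.36 in B, −0.28 in C and −0.31 in D, while silent reporters changed by −0.97, −1.04, −1.11 and −0.96 and kept reporters by 0.05, 0.0025, 0.04 and 0.0014. The pool values of the 3 sets did not overlap. Members differed from silent reporters by 0.70 ± 0.09 and from kept reporters by −0.35 ± 0.04 in this change (SD, n = 4 pools, the same direction in 4 of 4; exact sign-flip permutation p = 0.125 for each, the smallest possible; adjusted 0.141). Silent reporters had median RNA counts of only 20.5 to 37 at dox 0.01. With 5 added to each count in place of 1, the difference from silent reporters was 0.50, and with 0.1 added it was 0.74. The median of all eligible reporters changed by −0.32 ± 0.02, so the median member, at −0.32 ± 0.04, moved with it.

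The difference from silent reporters was also there within a narrower range of levels at dox 0. In the 4th to 7th classes, a range chosen after the values were seen, 644 members changed by −0.30 ± 0.05, 187 silent reporters by −1.18 ± 0.13 and 874 kept reporters by −0.03 ± 0.06 (median per pool, mean ± SD, n = 4). Within that range the sets were not equal in level, at −0.81 ± 0.06 for members, −1.38 ± 0.09 for silent and −0.64 ± 0.06 for kept reporters at dox 0. Their median DNA counts were 502 ± 153, 314 ± 49.3 and 578 ± 175. The classes were cut on the same dox 0 level from which the change was taken, so the range and the change are not independent. The part of level, of DNA counts or of this cut was not tested.

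Single members gave no call at dox 0.01. With edgeR's quasi-likelihood test and Benjamini-Hochberg adjustment within a pool, 0 members were lower and 0 were higher than at dox 0, and among all 10785 reporters tested 0% were lower and 0.0185% higher. The smallest adjusted p of a member was 0.462. At an unadjusted p under 0.05, 17 members were lower and 6 higher, beside 2.17% lower and 2.76% higher of all reporters. Of silent reporters 104 were lower and 1 higher at that threshold, and of kept reporters 21 were lower and 229 higher. The spread of a reporter was estimated over all libraries of its pool, including the dox 0.1 and 100 libraries that chose the sets. The calls at dox 0.01 are thus not independent of that choice, and the sets are not compared by them. DESeq2's Wald test called 8 members lower after adjustment, a share of 0.614% beside 0.732% of all reporters. The median log2 change was −0.11 in members and −0.12 in all reporters with edgeR's TMM scaling, and −0.32 and −0.33 with library totals.

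At dox 0.1, where the rule asked for RNA, the median member stood at −2.80, −2.90, −2.66 and −2.95 in pools A to D. The change from dox 0 averaged −2.10 ± 0.07, and that of all eligible reporters −2.10 ± 0.12 (SD, n = 4 pools; described only). Single members spread widely around this. The 10th percentile of their change was −3.70 ± 0.14 and the 90th −0.58 ± 0.04, and 4.45% ± 0.935 of the members had a higher level at dox 0.1 than at dox 0. The edgeR test called 263 members lower and 20 higher than at dox 0, beside 19.8% lower and 9.07% higher of all reporters. With library totals in place of TMM, 707 members were lower and 2 higher, beside 33.6% and 4.38% of all. With the culture number as a replicate block, 219 members were lower and 8 higher, beside 17.2% and 8.02% of all. Without dox 0 culture 1 they were 83 and 3, beside 11.7% and 5.41% of all, and without culture 2 they were 86 and 5, beside 11.4% and 5.41%; these are 6.37% and 6.61% of the members lower. The scaling moves the median change of all reporters at dox 0.1 from −0.80 with TMM to −1.96 with totals, so only changes relative to other reporters can be read. Because the rule used these libraries, the counts describe the members and support nothing further.

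At dox 100 all 1302 members were lower than at dox 0 by construction, beside 50.4% of all reporters. Bounds on the drop used a floor of 3 RNA counts over both dox 100 libraries and compared RNA/DNA, with counts per library total. By these bounds members were at least 5.45-fold to 4050-fold lower than at dox 0, with a median of at least 187-fold. Against dox 0.1 the bounds ran from at least 3.89-fold to at least 1364-fold lower, with a median of 40.4, and for 1260 members the bound was at least 10-fold. No molecular identifiers were read, so the floor covers the counting of PCR reads only.

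In each single dox 100 library, most eligible reporters of the pool had no RNA count, but fewer had none in both cultures (3234 of 7415). In the 8 dox 100 RNA libraries, 50.3% to 60.9% of eligible reporters had 0 counts, against 0.283% to 0.485% at dox 0. The reporters with RNA had median counts of 123 to 216 in those libraries, while counts of 1 to 19 made up 3.68% to 8.45% of those above 0. Counts of 1 to 49 made up 25.5%, 25.2% and 21.7% of them in culture 1 of pools B, C and D, and 5.77% to 10.9% in the other 5 libraries. The read floor of 3 counts is below most of the counts seen.

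Reporters that met the rule in 1 culture met it more often in the other culture of their pool than the rest did. Applied to culture 1 alone the rule picked 2364 reporters, and to culture 2 alone 2403, and each pick was then read in the culture it had not used. Of those picked in 1 culture, 54.7% ± 1.08 met the rule in the other culture, against 21.5% ± 0.494 of the other eligible reporters (SD, n = 4 pools). The difference was 33.2 ± 1.49 percentage points and was positive in 4 of 4 pools (exact sign-flip permutation p = 0.125, the smallest possible; adjusted 0.141). Both cultures of a pool hold the same integrations, so this describes how far the call repeated between technical replicates. Whether it goes beyond what the level of a reporter gives was not tested. Of the picked reporters, 73.4% ± 0.561 had 0 counts at dox 100 in the other culture, against 45.6% ± 2.18 of the rest. Those that had RNA there had a median count of 69.8 ± 9.27. A reporter lost at dox 100 in 1 culture could thus give many reads in the other, and membership marks the reporters for which both cultures gave 0.

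Of the 3234 eligible reporters with 0 RNA counts in both cultures at dox 100, 895 had 0 in both at dox 0.1, 890 had 0 in 1 of them, 147 had 1 to 9 counts in the lower culture and 1302 were members. Just inside the limit, the pool C member at position 70435470 of chromosome 8 counted 55 and 67 RNA reads at dox 0, then 11 and 10 at dox 0.1. Members at position 113211758 of chromosome 12 (pool B) and position 91926728 of chromosome 3 (pool C) each had 13 and 10 at dox 0.1. Just outside it, a pool B reporter at position 29023147 of chromosome 6 had 101 and 9 counts at dox 0.1, a pool D reporter at position 79498969 of chromosome 12 had 40 and 9, and a pool D reporter at position 144403003 of chromosome 6 had 9 and 36. The reporters just outside had more RNA in 1 culture than the 3 just inside had in either.

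The RNA counts of single members at dox 0 lay between 14 and 7952. Among the 5 with the highest level at dox 0, the pool B member on chromosome 11 at 98200911 (minus strand) had 3078 and 3155 RNA counts at dox 0, 1770 and 1819 at dox 0.01 and 171 and 170 at dox 0.1. Its RNA/DNA level was 3.70 ± 0.45 at dox 0 and −0.21 ± 0.49 at dox 0.1 (SD, n = 2 cultures). RNA of the pool A member at position 107248118 of chromosome 12 came to 6127 and 6329 counts at dox 0, then 65 and 171 at dox 0.1, a change in level of −5.85. That on chromosome 5 at 34930586 (pool A) had 3743 and 4753, 3869 and 4824, and 775 and 1617 counts at dox 0, 0.01 and 0.1, a change of −1.26 between dox 0 and 0.1. These members, all among the 5 highest in level at dox 0, thus kept quite different counts at dox 0.1 before all were at 0 at dox 100.

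The other 2 of the 5 highest were a pool D member at position 88601132 of chromosome 1, at 897 and 338 RNA counts under dox 0.1, and a pool C member on chromosome 18, at 545 and 405. The 5 lowest at dox 0 had 340 to 1727 DNA counts and 14 to 88 RNA counts there. The lowest, on chromosome 8 at 32864891 (pool A), had 14 and 44 RNA counts beside 1064 and 1112 DNA counts at dox 0, and 27 and 43 RNA counts at dox 0.1. RNA of the pool B member at position 6034831 of chromosome 17 came to 17 and 20 counts at dox 0, then 42 and 72 at dox 0.1. In these 2 members the summed RNA count was higher at dox 0.1 than at dox 0.

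Of the 5 members with the highest level at dox 0.1, the dose the rule used, 2 had a higher level there than at dox 0. RNA of the pool D member at position 34092936 of chromosome 1 came to 1496 and 1772 counts at dox 0, 1785 and 1568 at dox 0.01 and 1103 and 722 at dox 0.1, a change in level of −0.14. The pool B member on chromosome 5 at 102445875 had 937 and 936, 1086 and 1245, and 1460 and 1261 counts at those doses, a change in level of 1.32. Both had 0 and 0 counts at dox 100. The others were the members on chromosome 2 at 121333107 and on chromosome 6 at 119981498 (both pool B), with 765 and 655 and with 731 and 488 counts at dox 0.1 and changes of 0.63 and −0.20, and the chromosome 5 member at 34930586 given above.

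Levels of the members had a higher r between cultures at dox 0 and 0.01 than at dox 0.1. Within a pool of 302 to 342 members, the 2 cultures had a Pearson r of 0.899 ± 0.0166 at dox 0, 0.904 ± 0.00886 at dox 0.01 and 0.674 ± 0.0392 at dox 0.1 (SD, n = 4 pools; across reporters, which share their libraries and are not independent replicates). The levels at dox 0 and 0.01 had an r of 0.926 ± 0.00782, and those at dox 0 and 0.1 an r of 0.627 ± 0.0189. The values between doses use levels averaged over both cultures and those between cultures use single libraries, so the 2 kinds of r are not on 1 scale. Members were chosen by a minimum of 10 RNA counts at dox 0.1. Their median RNA counts there were 49 to 99.5, against 339 to 561.5 at dox 0. The part of either in the lower r at dox 0.1 was not tested.

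DNA showed no call for any member. The edgeR test on the DNA libraries found 0 members changed at dox 0.01, 0 at dox 0.1 and 0 at dox 100 against dox 0, beside 0% of all reporters in each direction and at each dose. At an unadjusted p under 0.05, 29 members were lower and 17 higher at dox 100, beside 2.23% and 2.27% of all reporters. The counts were 24 lower and 25 higher at dox 0.1, beside 1.89% and 2.11%, and 25 lower and 18 higher at dox 0.01, beside 2.19% and 2.32%. DESeq2's Wald test also called 0 at dox 0.1 and 0 at dox 100. Between dox 0 and dox 100 the log2 DNA change of 90% of the members lay between −0.79 and 0.68, with a median of −0.02.

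Members lay on every chromosome except Y, where 0 of 4 eligible reporters were members. Chromosome 13 had the highest share, 82 of 364 eligible reporters (22.5%, 95% Wilson interval 18.5% to 27.1%), followed by chromosome 2 with 112 of 529 (21.2%) and chromosome 9 with 85 of 403 (21.1%). The lowest shares were 14 of 132 on X (10.6%, 6.42% to 17.0%) and 60 of 451 on chromosome 4 (13.3%, 10.5% to 16.8%). On chromosome 13 the pools gave 20.0% to 25%, on chromosome 4 11.6% to 16.7% and on X 6.45% to 14.3%. Chromosome 13 was thus above chromosomes 4 and X in every pool. These chromosomes were picked for their extreme shares, so no test is given, and intervals cover counting error only. The reporters were inserted in either direction about equally often, with 627 members on the plus strand and 675 on the minus strand (48.2% plus, against 49.1% of all eligible reporters).

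**Figure D3:**
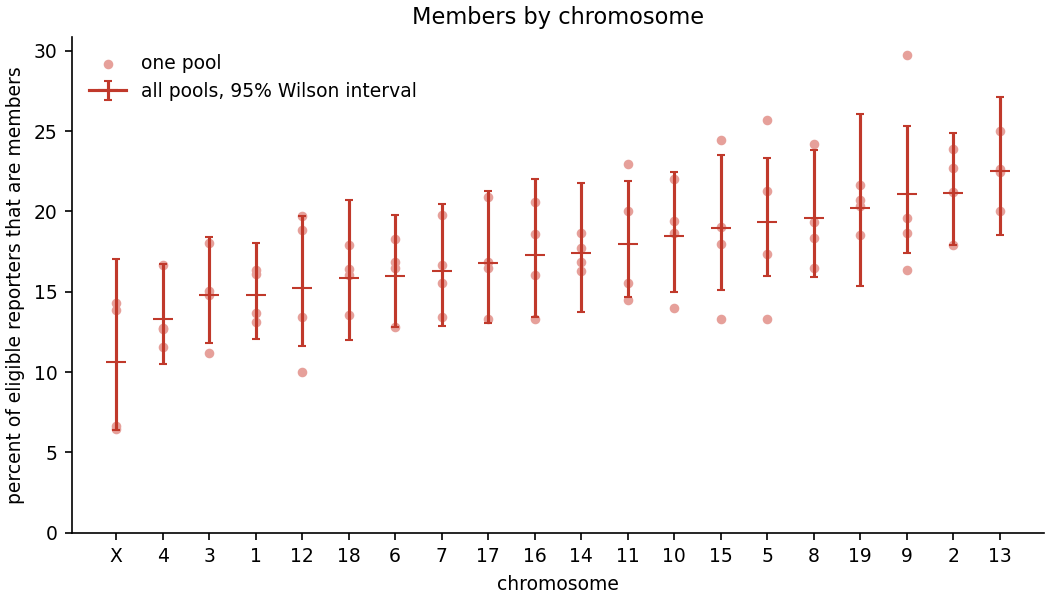
Percent of eligible reporters that are members on each chromosome with at least 50 eligible reporters (bars, all pools with 95% Wilson interval; points, single pools). Shares run from 10.6% on X to 22.5% on chromosome 13, and the intervals of most chromosomes overlap.

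Neighbours in other pools give a view of the same place from cells that share no culture with the member. Of the 1302 members 771 (59.2%) had a reporter of another pool within 100 kb, against 37.0% of silent and 73.5% of kept reporters. An eligible neighbour was found for 123 members under 10 kb and for 578 at 10 to 100 kb. The 771 thus also count neighbours that were not eligible. The dox 0 level of neighbours within 100 kb, eligible or not, was taken against the median of the neighbour's own pool. It was 0.47, 0.35, 0.43 and 0.38 for members of pools A to D. For silent reporters it was −0.89, −1.06, −1.37 and −0.69, and for kept reporters 1.02, 0.86, 0.93 and 0.95. The members' neighbours were above those of silent reporters and below those of kept reporters in 4 of 4 pools, with no overlap of the pool values. The neighbours of each pool come from the other pools, so the 4 pool values share reporters and are not fully independent.

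The difference in neighbour level was 1.41 ± 0.30 against silent and −0.53 ± 0.03 against kept reporters (SD, n = 4 pools; log2 scale; exact sign-flip permutation p = 0.125 for each, the smallest possible; adjusted 0.141). Among reporters in the 4th to 7th classes of level the difference was 0.62 and −0.32 in the same order. These values rested on 365 members, 86 silent and 611 kept reporters with such a neighbour. Their neighbours stood at 0.30 ± 0.07, −0.32 ± 0.33 and 0.61 ± 0.12 (SD, n = 4 pools). In pool A the values were 0.24 for members and 0.13 for silent reporters. Within those classes the sets were not equal in their own dox 0 level. The density of reporters around members did not differ beyond the spread between pools, with a median of 11 reporters of the whole table within 1 Mb of a member and 10.5 ± 0.577 of other eligible reporters (exact sign-flip permutation p = 0.5; higher in 2 of 4 pools, the same in the others). With an RNA minimum of 50 in the rule the difference was 2 reporters rather than 0.5 (exact sign-flip permutation p = 0.125, the smallest possible).

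Members also had members as neighbours more often than eligible reporters at large. Here, and by distance below, only eligible neighbours were counted. Within 100 kb, 22.9%, 23.4%, 20.2% and 21.5% of the other-pool neighbours of members of pools A to D were members, against 17.1%, 14.9%, 16.2% and 16.5% for all eligible reporters. The difference was 5.85 ± 1.94 percentage points (SD, n = 4 pools, positive in 4 of 4; exact sign-flip permutation p = 0.125, the smallest possible; adjusted 0.141). Pairs are counted from both ends, so the 4 pool values share pairs.

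The share of members among neighbours depended on distance. Under 10 kb, 34 of the 143 neighbours of members were members (23.8%), against 14.0% over all eligible reporters. For silent reporters it was 9 of 39 (23.1%) at that distance, much as for members, and for kept reporters 42 of 542 (7.75%). At 10 to 100 kb the share was 21.7% against 16.6%, and at 100 kb to 1 Mb it was 19.4% against 18.5%. Under 10 kb, kept reporters made up 29.4% of the neighbours of members, 17.9% of those of silent reporters and 53.1% of those of all eligible reporters. A low share of kept neighbours was thus shared with silent reporters. Silent reporters made up 6.29% of the neighbours of members and 3.82% over all eligible reporters at that distance, on 9 and 39 neighbours. Between 100 kb and 1 Mb the kept share beside members, 34.5%, was close to the 34.4% over all eligible reporters.

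**Figure D4:**
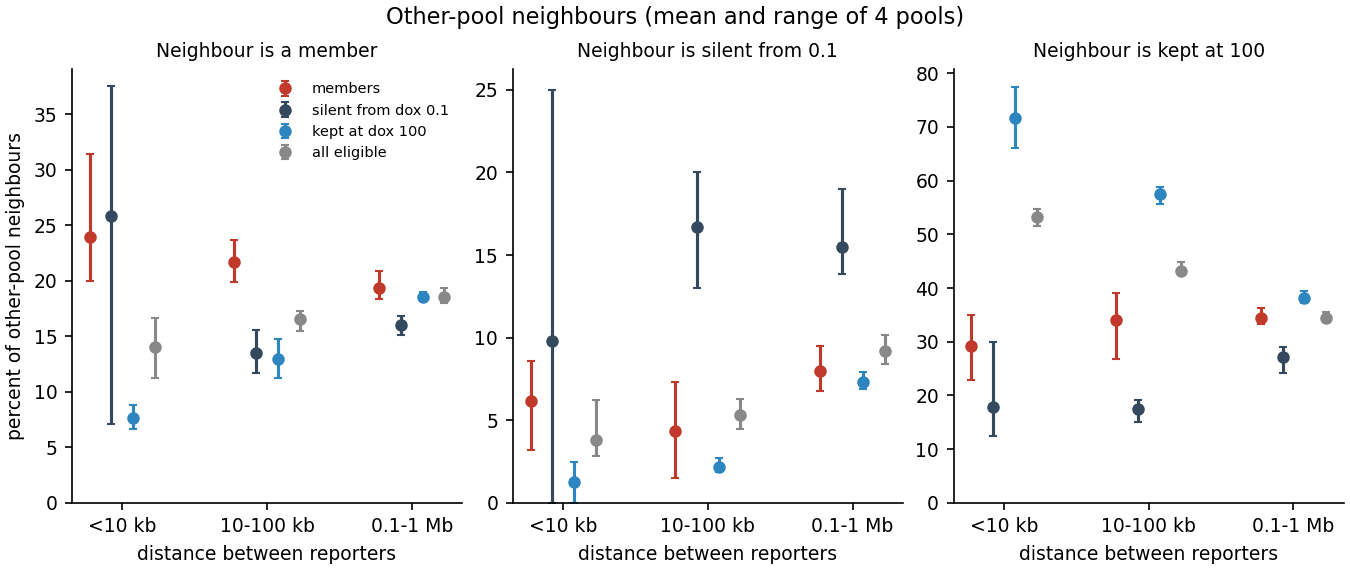
Percent of the other-pool neighbours of members, silent, kept and all eligible reporters that are members (left), silent (middle) or kept (right), by distance (points, mean of 4 pools; bars, lowest and highest pool). Under 10 kb members have more member neighbours and fewer kept neighbours than all eligible reporters, and the sets come closer at 0.1 to 1 Mb.

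The closest pairs of members from different pools show how alike 2 integrations at 1 place were. On chromosome 8, members 704 bp apart at 77505025 (pool B) and 77504321 (pool D) had 132 and 147 and 142 and 145 RNA counts at dox 0, and 62 and 19 and 43 and 30 at dox 0.1. On chromosome 1, members 1064 bp apart at 39406728 (pool B) and 39405664 (pool D) had 503 and 568 and 491 and 492 RNA counts at dox 0, and 111 and 123 and 116 and 105 at dox 0.1. Their levels at dox 0 were −0.12 and −0.34, and at dox 0.1 −1.82 and −1.97. These 2 pairs were alike in level without dox, and the chromosome 1 pair at dox 0.1 as well.

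Other close pairs differed. The chromosome 16 members 847 bp apart at 44531305 (pool B) and 44530458 (pool D) stood at 1.54 and 2.10 at dox 0 but at −1.06 and 1.35 at dox 0.1. The chromosome 5 members 1093 bp apart at 115941853 (pool A) and 115940760 (pool D) stood at −0.83 and 1.12 at dox 0 and at −2.01 and 0.25 at dox 0.1. The 5th pair lay on chromosome 4, 2145 bp apart at 43355411 (pool A) and 43353266 (pool B), with 211 and 134 and 17 and 40 RNA counts at dox 0.1.

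Some members lay beside a reporter of another set. The following pairs were looked up after the values were seen, as the closest of their kind. On chromosome 3, a member at 100908594 (plus strand, pool D) and a kept reporter at 100908593 (minus strand, pool A) lay 1 bp apart. At dox 0.1 the member had 267 and 182 RNA counts and the kept reporter 781 and 980. At dox 100 the member had 0 and 0 and the kept reporter 1424 and 463. Their levels at dox 0 were 0.78 and 0.76. A member at 76484584 and a kept reporter at 76484591 on chromosome 14 (pools D and B, both plus strand) lay 7 bp apart, with levels of −2.62 and 0.77 at dox 0 and with 0 and 0 and 416 and 261 RNA counts at dox 100. On chromosome 17, a member at 7443570 (pool B) and a kept reporter at 7443559 (pool D), 11 bp apart, had 352 and 477 and 390 and 276 counts at dox 0.1 and 0 and 0 and 683 and 625 at dox 100. Nearly identical positions thus held reporters of different outcome in different pools.

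The closest silent neighbour of a member lay 131 bp away. This member, on chromosome 14 at 62962130 (pool D), had 289 and 333 RNA counts at dox 0, against 36 and 34 in the silent reporter at 62961999 (pool A). At dox 0.1 they had 40 and 20 and 0 and 0. On chromosome 1 the member at 90174748 (pool C) had 28 and 14 counts at dox 0.1, and the silent reporter at 90177087 (pool B), 2339 bp away, had 0 and 0. Those 2 had levels of −0.34 and −0.58 at dox 0.

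The 1 Mb stretch with the most members was on chromosome 15 from 84000001 to 85000000. There 8 of 12 eligible reporters were members, from 4 pools, 3 were kept, 1 was of another kind and 0 were silent. Between 84252309 and 84562376, the 5 eligible reporters, of pools A, B and D, were all members. The pool D member at 84252309 counted 1698 and 1931 RNA reads at dox 0, 931 and 555 at dox 0.01 and 36 and 19 at dox 0.1. The pool A member at 84551018 had 1746 and 1876, 1187 and 1373, and 275 and 191 counts at the same doses. Of the 3 kept reporters, 2 lay at the low end of the stretch, at 84012985 (pool C) and 84018584 (pool A), with 203 and 179 and 278 and 402 RNA counts at dox 100. They lay 11.1 kb and 16.7 kb from the member at 84001859 (pool A), at which 111 and 112 RNA reads were counted under dox 0.1 and none (0 and 0) under dox 100. A member and 2 kept reporters of pools A and C thus lay within 16.7 kb.

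**Figure D5:**
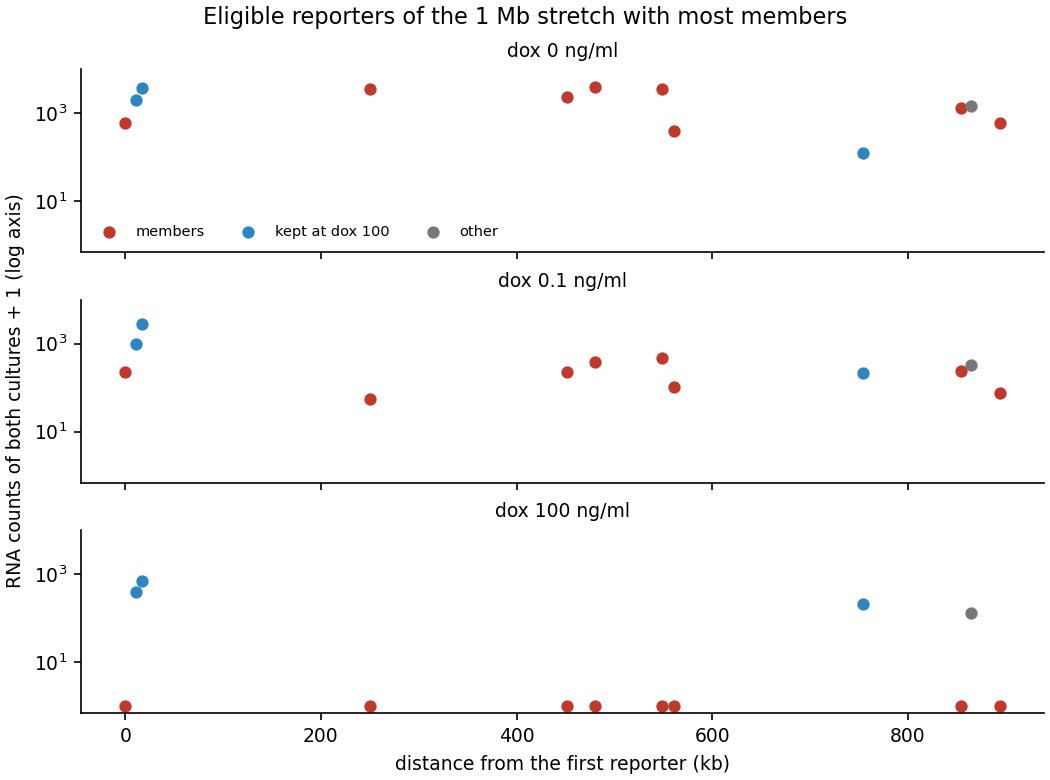
RNA counts of both cultures plus 1 (log axis) of the 12 eligible reporters in the chromosome 15 stretch against distance from the first reporter in kb, at dox 0, 0.1 and 100 ng/ml (points, single reporters; colours, members, kept and other). The 8 members have counts at dox 0 and 0.1 and lie at 0 counts at dox 100, where the 3 kept reporters and the other one have RNA.

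On chromosome 14 from 76000001 to 77000000, 5 of 21 eligible reporters were members (23.8%) and 13 were kept, a share of members nearer to the 17.6% over all sites than in the chromosome 15 stretch. Under dox 0.1, RNA counts were 33 and 15 in the pool D member at 76679024, the lowest, and 618 and 870 in the pool A member at 76822880. On chromosome 4 from 43000001 to 44000000 the 4 eligible reporters, of pools A and B, were all members. They had 17 and 40 counts (43353266), 211 and 134 (43355411), 342 and 267 (43642053) and 150 and 170 (43824385) at dox 0.1. This was 1 of 21 stretches with 4 members, taken because its share of members was the highest. The stretches were picked for their number and share of members, so no test is given.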

How the data were processed

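The deposited table holds raw read counts per barcode, per the file headers: RNA (cDNA) and DNA (genomic) count columns for 4 doses and 2 cultures in each of 4 pools, 64 libraries of the 80 samples. The 16 mapping libraries enter only through chromosome, position and strand. The submitters' processing notes name Bowtie2 2.0 and mm9, with no role; barcode calling and filtering are not given in the sources used here. Coordinates are in mm9 as deposited. No mm9 annotation was used, so genes at the sites were not analysed here. There were 0 unused columns of sample values.

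RNA to DNA ratios were tested per pool with edgeR 4.0.16 (R 4.3.3): a quasi-likelihood model over 16 libraries with an assay by dose interaction, TMM factors computed per assay, at least 10 DNA counts in every DNA library, and Benjamini-Hochberg adjustment at 0.05 over all reporters of the pool. DNA was tested on the 8 DNA libraries alone. DESeq2 1.42.0 was an alternative. The fit was tested on simulated counts. Levels and neighbour values used Python 3.11.15, numpy 2.4.6, pandas 2.3.3 and scipy 1.17.1.

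Members and comparison sets were chosen with earlier results of these data known. Named reporters are the 5 highest and 5 lowest members at dox 0 (examples of the latter), the 5 highest at dox 0.1, 3 just inside and 3 just outside the RNA minimum, the 5 closest pairs of members of different pools and the 3 stretches of 1 Mb with most members (ties broken by the share of members, the third being 1 of 21 with 4); the rule also allowed members that passed at dox 0.01 or in DNA, and none did. The shared barcodes, the chromosomes and the close pairs with kept or silent reporters were picked after their values were seen. The culture numbers pair the libraries by the protocol, since each culture was split over the doses; culture differences of reporters at 2 doses had an r of −0.0537 to 0.0414 in RNA and −0.051 to 0.0463 in DNA.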

Additional observations from a re-analysis of the deposited data

How the results depend on the processing

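Of 183 values recomputed under an alternative, none changed sign, though several moved in size. Many of the 183 are counts of members, which cannot change sign, and the difference in reporter density was 0 with a window of 100 kb. The number of members depends on the limits of the rule: 595 with an RNA minimum of 50, 850 with a DNA minimum of 200, and 2364 to 2403 with 1 culture left out. Members lower at dox 0.01 numbered 8 with DESeq2's Wald test and 0 in the other alternatives. At dox 0.1, members lower numbered 619 with DESeq2 size factors, 707 with library totals and 794 with the Wald test, and members higher 2, 2 and 9, beside 30.6%, 33.6% and 39.0% of all reporters lower; the shift of the median with the scaling is given above. Leaving out 1 culture of either dose gave 83 to 299 lower and 3 to 22 higher, beside 11.7% and 25.4% of all reporters lower in the fits with 83 and 299; the 83 (3 higher) and 86 (5 higher) came without dox 0 culture 1 and 2, and the cause was not tested.

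With the culture number as a replicate block, members lower at dox 0.1 numbered 219 (16.8%, beside 17.2% of all reporters) and members higher 8 (0.614%, beside 8.02%). The block changed no other call: 0 members passed at dox 0.01 and in DNA, and 1302 were lower at dox 100.

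The differences over pools kept their direction in every alternative run, except that in reporter density, which was 0 with a window of 100 kb and reached 2 with an RNA minimum of 50. That in dox 0 level against kept reporters ranged from −0.90 (DNA minimum of 200) to −0.20 (RNA minimum of 50), that in neighbour level from 0.62 to 1.72 against silent and from −0.93 to −0.20 against kept reporters, and the excess of member neighbours from 1.53 (neighbours within 1 Mb) to 9.91 points (within 10 kb). The comparisons within the 4th to 7th classes of level were chosen after seeing the data. With 4 pools no such test can pass 0.05. Read depth limits members near 10 RNA counts at dox 0.1, and a count of 0 at dox 100 limits reads, not RNA molecules.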
